A study of Mus musculus with 20 samples.

Results

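Caveolae and fenestral diaphragm genes were followed in RNA pulled down through ribosomes tagged in tumor endothelium, and in whole tumor. The set was fixed by name as 7 genes (Cav1, Cav2, Cavin1, Cavin2, Cavin3, Ehd2 and Plvap) of the 55866 genes in the count table, and 4 of the 7 (Cavin1, Cavin3, Ehd2 and Plvap) hold counts. The tumors were Py8119, a mouse mammary carcinoma cell line that arose in mice expressing polyoma middle T antigen, grown in a mammary fat pad (the fifth on the left) of RiboTagEC mice. In these mice an HA tag on the ribosomal protein Rpl22 is switched on by a tamoxifen-dependent Cre recombinase under the Cdh5 (VE-cadherin) promoter, so that tagged ribosomes come from cells that used Cdh5 at the time of tamoxifen and from their descendants. RNA pulled down with anti-HA beads is called IP here, and RNA of the same homogenate before the pull-down is called input.

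All mice were female C57BL/6J, carried Rpl22HA/HA and Cdh5CreERT2, received tamoxifen at 75 mg/kg for 5 days from 3 weeks of age and were implanted at 8 weeks of age. Once tumors had formed they received either control mouse IgG or 6-3-A6, an antibody that blocks Notch4, at 25 mg/kg and 2 doses per week by vein, and tumors were taken after 10 days. Each treatment had 5 tumors, and each tumor gave 1 input and 1 IP library, 20 libraries in all, with 11881214 to 26728205 counts per library. The fraction of each library was taken from its title. For the 6-3-A6 libraries a further label names the opposite fraction, and the summed level of 17 endothelial marker genes was 187 to 316 CPM (counts scaled to a common library size) in those titled input and 1284 to 6466 CPM in those titled IP. The IP libraries of tumors control IgG 4 and 6-3-A6 2 stood lowest in these markers, with a mean log2 CPM over the list of 5.79 and 5.64 against 6.58 to 8.03 in the other 8 IP libraries. The study's own treatment comparison used 3 IP libraries per treatment, control IgG 2, 4 and 5 and 6-3-A6 1, 3 and 4. The others had been set aside as outliers in a principal component analysis.

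Caveolae are flask-shaped pits of the plasma membrane that are abundant in endothelial cells, adipocytes and muscle. Caveolins (Cav1, Cav2) build the membrane scaffold, cavins (Cavin1, Cavin2, Cavin3) form a coat on its cytoplasmic side, and the ATPase Ehd2 sits at the neck and holds the pit at the surface. Plvap is the endothelial protein that forms the thin diaphragms across the openings of caveolae and fenestrae, and it marks permeable capillaries.

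Whether a member could be counted at all depended on its neighbors in the genome. The counts were made over whole gene spans, introns included, and a read that falls in more than 1 gene is by default left out by the counting program. Positions here are those of the count table (GRCm39). Cav1 (chr6:17306334-17341451, plus strand) and Cav2 (chr6:17281184-17289114, plus strand) both lie wholly within Gm15581, a gene on the opposite strand that spans 178782 bases. Cavin2 (chr1:51328285-51342119, plus strand) lies wholly within 9330175M20Rik, also on the opposite strand. All 3 have 0 counts in all 20 libraries, and this count sets no limit on their transcripts, because no base of their exons lies outside the overlapping gene. Their levels are therefore not reported, nor are those of the overlapping genes used in their place.

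The 4 counted members were affected to different degrees. Ehd2 (chr7:15680883-15701492, minus strand, 136754 counts in all) overlaps no other gene. Cavin1 (chr11:100847559-100861713, minus strand, 69811 counts) is overlapped at its 5′ end over 1020 bases by ENSMUSG00000120984, Cavin3 (chr7:105129290-105131507, minus strand, 25803 counts) at its 5′ end over 374 bases by Gm45667, and Plvap (chr8:71950409-71964396, minus strand, 44829 counts) at its 3′ end over 1819 bases by Gtpbp3. Measured on the exons of GENCODE M21, this leaves 2689 of 3587 exon bases of Cavin1, 1288 of 1662 of Cavin3 and 1346 of 1987 of Plvap to be counted, against all 5119 of Ehd2. The same bases were lost in every library.

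**Figure D1:**
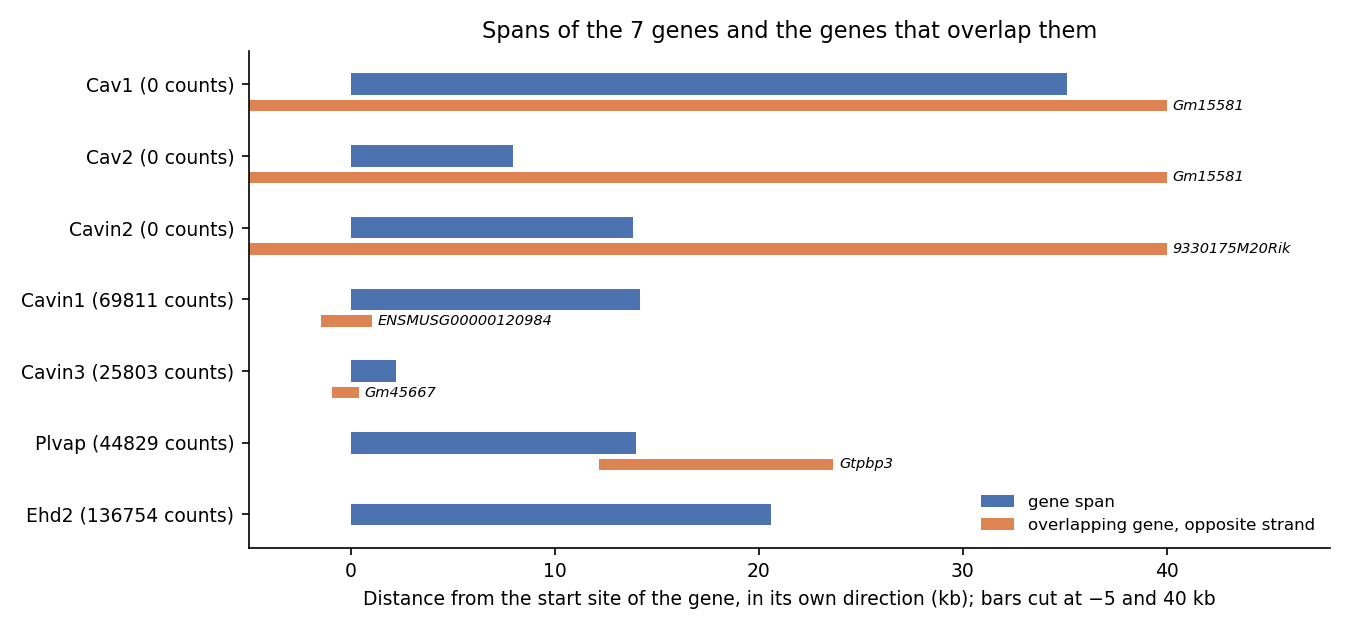
Horizontal bars give the span of each of the 7 genes (blue) and of the gene on the opposite strand that overlaps it (orange), as distance in kb from the start site of the member in its own direction, with bars cut at 5 kb upstream and 40 kb downstream. Cav1, Cav2 and Cavin2 are covered from end to end and have 0 counts, Cavin1 and Cavin3 are overlapped at the start, Plvap at the end, and Ehd2 not at all.

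Promoter sequences are shown for the counted members that RefSeq's table (GRCm38.p6) holds, Cavin1 and Ehd2, which were also far apart in IP enrichment (22.2-fold and 2.31-fold, IP over input). Each runs 5′ to 3′ from 250 bases before to 50 bases after the annotated start. Capitals mark GGAA and TTCC, the core letters read by ETS factors, a family that includes regulators of endothelial genes, on the given and on the opposite strand.

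Cavin1, chr11:100970568-100970867, minus strand: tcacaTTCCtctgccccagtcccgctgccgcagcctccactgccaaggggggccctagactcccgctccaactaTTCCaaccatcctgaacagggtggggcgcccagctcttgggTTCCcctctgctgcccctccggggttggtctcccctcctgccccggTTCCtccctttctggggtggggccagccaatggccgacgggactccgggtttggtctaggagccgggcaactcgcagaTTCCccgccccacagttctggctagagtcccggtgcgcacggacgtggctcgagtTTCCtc

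Ehd2, chr7:15967486-15967785, minus strand: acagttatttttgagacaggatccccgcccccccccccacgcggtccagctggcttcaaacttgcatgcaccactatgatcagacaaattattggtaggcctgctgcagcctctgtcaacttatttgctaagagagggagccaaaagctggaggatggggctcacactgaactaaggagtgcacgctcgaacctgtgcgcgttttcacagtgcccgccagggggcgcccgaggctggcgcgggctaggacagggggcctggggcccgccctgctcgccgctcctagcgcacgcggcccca

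The Cavin1 window held 6 such cores and 66.7% G and C, and the Ehd2 window held 0 cores and 62% G and C. Of the 32851 promoters of the same length in the table, 96% held at least 1 core, and their median G and C content was 52.7%. Each window also held 1 CCAAT box (CCAAT or ATTGG, in 37.4% of promoters) and 0 TATA boxes (TATAAA or TTTATA, in 13.6%). A match of letters is not a binding site, and the absence of one says nothing about any factor.

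Plvap levels ranged widely between IP libraries. In the control IgG tumors 1 to 5 its input level was 6.51, 11.0, 15.2, 8.17 and 11.2 CPM, and its IP level was 277, 230.0, 363, 71.7 and 169 CPM. In the 6-3-A6 tumors its input level was 13.4, 8.93, 8.48, 3.73 and 7.14 CPM, and its IP level was 309, 43.8, 208, 372 and 243 CPM. Every IP library lay above every input library, and control IgG 4 and 6-3-A6 2, the tumors low in endothelial markers, were the lowest in IP. The group means were 10.4 ± 3.31 CPM in input and 222 ± 110.1 CPM in IP under control IgG, and 8.33 ± 3.47 and 235 ± 124 CPM under 6-3-A6 (SD, n = 5 each). In bulk RNA of this kind, fewer cells of a type and less RNA per cell cannot be told apart.

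Cavin1, the core cavin without which caveolae do not form, had input levels of 19.9, 14.5, 13.7, 15.9 and 15.5 CPM in control IgG tumors 1 to 5 and IP levels of 574, 281, 375, 144 and 213 CPM. Under 6-3-A6 the input levels were 13.9, 15.7, 14.7, 9.74 and 18.0 CPM and the IP levels were 337, 198, 465, 699 and 287 CPM. Input levels stayed within a narrow band, and the treatments overlapped in both fractions. The means were 15.9 ± 2.40 CPM in input and 317 ± 167 CPM in IP under control IgG, and 14.4 ± 3.05 and 397 ± 194 CPM under 6-3-A6 (SD, n = 5 each).

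Cavin3, the cavin that binds protein kinase C delta, had input levels of 7.16, 7.52, 5.25, 14.5 and 7.86 CPM in control IgG tumors 1 to 5 and of 5.07, 4.01, 6.58, 4.01 and 5.07 CPM in 6-3-A6 tumors 1 to 5. Its IP levels were 194, 87.1, 142, 44.4 and 73.5 CPM and 150, 56.7, 190, 284 and 89.2 CPM, respectively. Control IgG 4 was the highest input library and the lowest control IP library, and the IP levels of the treatments overlapped. The means were 8.46 ± 3.52 CPM in input and 108 ± 59.6 CPM in IP under control IgG, and 4.95 ± 1.06 and 154 ± 89.1 CPM under 6-3-A6 (SD, n = 5 each).

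Ehd2 was the counted member whose input level was highest, also per length (as given further on). Its input levels were 245, 226, 243, 203 and 191 CPM in control IgG tumors 1 to 5 and 197, 233, 268, 157 and 205 CPM in 6-3-A6 tumors. Its IP levels were 490, 506, 621, 340 and 475 CPM under control IgG and 555, 533, 598, 732 and 458 CPM under 6-3-A6. The fractions did not overlap for Ehd2 either, but its levels differed less between them than those of the other counted members. The means were 222 ± 24.3 CPM in input and 486 ± 100.2 CPM in IP under control IgG, and 212 ± 41.3 and 575 ± 101 CPM under 6-3-A6 (SD, n = 5 each).

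**Figure D2:**
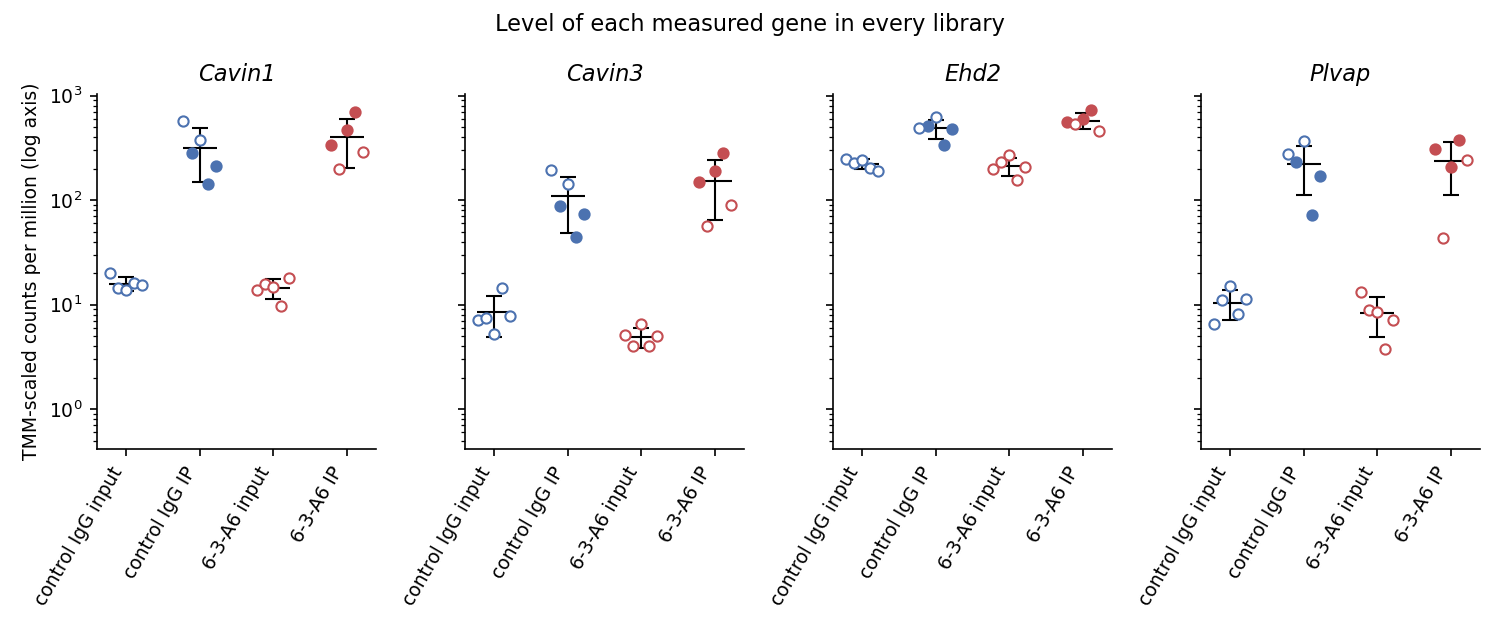
Each panel plots 1 gene on a shared log axis of TMM-scaled CPM, with 1 point per library, in control IgG (blue) and 6-3-A6 (red), and black bars for the mean and SD of the 5 libraries. Filled points are the 3 IP libraries per treatment that the study kept, and they are the 3 lowest control IgG and the 3 highest 6-3-A6 libraries for Cavin1 and Cavin3.

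Levels can be set against each other between genes only per length. Per kb of exon that could be counted, the level in input under control IgG was highest for Ehd2 (43.3 ± 4.74 CPM per kb), followed by Plvap (7.73 ± 2.46), Cavin3 (6.57 ± 2.73) and Cavin1 (5.90 ± 0.891). Only the step from Ehd2 to Plvap was larger than the SDs. In IP under control IgG the order was Plvap (165 ± 81.8 CPM per kb), Cavin1 (118 ± 62.2), Ehd2 (95.0 ± 19.6) and Cavin3 (84.0 ± 46.3), and under 6-3-A6 it was Plvap (175 ± 92.2), Cavin1 (148 ± 72.2), Cavin3 (119 ± 69.2) and Ehd2 (112 ± 19.8). No neighboring members in IP differed beyond their SDs. The order in IP rests on the length used: per kb of whole span, introns included, Cavin3 was the highest under control IgG (48.8 CPM per kb) and Plvap the lowest (15.9 CPM per kb).

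To ask which members were carried by tagged ribosomes, IP was compared with input over the 10 tumors. All 4 counted members were called higher in IP and had IP libraries that did not overlap the input libraries. Of the 13582 genes tested, 19.8% were called higher and 4.45% were higher with no overlap. Plvap was 23.3-fold higher (log2 fold change 4.54, SE 0.34, adjusted p = 8.92e-10), Cavin1 22.2-fold (4.47, SE 0.25, adjusted p = 3.31e-11), Cavin3 18.7-fold (4.23, SE 0.34, adjusted p = 2.08e-09) and Ehd2 2.31-fold (1.21, SE 0.12, adjusted p = 7.15e-08), all by edgeR's quasi-likelihood test with Benjamini-Hochberg adjustment. The median over all genes tested was -0.05 on the log2 scale. Without tumors control IgG 4 and 6-3-A6 2, the log2 fold changes were 4.78, 4.68, 4.55 and 1.29 in the same order, and all 4 stayed called. These fits did not pair the IP and input of a tumor. With each tumor as a block, 7120 genes were called in either direction against 5597 without it. The log2 fold changes were then 4.36, 4.34, 4.10 and 1.20 in the same order, and all 4 stayed called.

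All 4 members were also called higher in IP within each treatment. Under control IgG, where 8.28% of 14488 genes were called higher and 8.63% were higher with no overlap, the log2 fold changes were 4.36 for Plvap, 4.26 for Cavin1, 3.62 for Cavin3 and 1.07 for Ehd2. Under 6-3-A6, where 12.8% were called higher and 8.41% were higher with no overlap, they were 4.74, 4.70, 4.87 and 1.36. With each tumor as a block, which pairs its IP with its input, the number of genes called under control IgG moved from 1649 to 3249, and the members were called with log2 fold changes of 4.23 for Plvap, 4.12 for Cavin1, 3.52 for Cavin3 and 1.06 for Ehd2.

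The difference in enrichment between the treatments was tested as an interaction, and 0 members were called (0% of 14488 genes by edgeR, and 0 genes by DESeq2, with 125 and 162 genes at an unadjusted p under 0.05). The member with the largest difference was Cavin3, whose log2 enrichment was 1.24 higher under 6-3-A6 (SE 0.55, unadjusted p = 0.0336, adjusted p = 1.00 by edgeR). It was 0.79 (SE 0.51) without tumor control IgG 4, the lowest of 10 fits that each left out 1 tumor, and 1.62 without control IgG 1, the highest. For Cavin1, Plvap and Ehd2 the difference was 0.43 (SE 0.45), 0.38 (SE 0.61) and 0.29 (SE 0.24). Without tumor 6-3-A6 4 these fell to 0.070, 0.0073 and 0.15, and with any other tumor left out they lay at or below 0.67, 0.66 and 0.37. The input library of 6-3-A6 4 stood apart from the other input libraries. It was the lowest in the endothelial markers (mean log2 CPM 2.03 against 2.86 to 3.40), and its TMM scaling factor was 0.78 against 0.91 to 1.09 in all other libraries.

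Because endothelial marker levels differed between pull-downs, each member was next set against the endothelial marker list within its own tumor. The list's mean log2 ratio of IP to input ranged from 2.68 (6-3-A6 2) to 5.52 (6-3-A6 4) over the 10 tumors, and the members were expressed as the log2 ratio less that mean. Here and below, the limma SEs and p-values against this list rest on a spread shared over genes of like mean ratio. They do not measure the gene's own spread over the tumors. Cavin1 lay 0.24 above the list (SE 0.21, adjusted p = 0.258 by limma), above it in 9 of 10 tumors. Plvap lay 0.27 above (SE 0.21, adjusted p = 0.208 by limma), above it in 8 of 10 tumors. Cavin3 lay at -0.02 (SE 0.22, adjusted p = 0.914 by limma), above the list in 5 tumors and below it in 5. An exact two-sided sign-flip permutation over the 10 tumors, unadjusted for the 4 members tested this way, gave p = 0.0215 for Cavin1, 0.0566 for Plvap and 0.906 for Cavin3. The adjusted p-values miss the threshold, which does not show that the genes equal the list.

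The position of Cavin3 against the list was split by treatment, a comparison added after these values were seen. Under control IgG it was -0.11, -0.48, 0.14, -1.32 and -0.50 in tumors 1 to 5, and under 6-3-A6 it was 0.38, 1.12, 0.29, 0.31 and -0.07. It was thus below the list in 4 of 5 control IgG tumors and above it in 4 of 5 tumors under 6-3-A6, and the treatments overlapped. The means were -0.45 ± 0.55 and 0.40 ± 0.44 (SD, n = 5 each), a difference of 0.86 (SE 0.44, adjusted p = 1.00 by limma over 14488 genes, of which 0% were called and 97 had an unadjusted p under 0.05). An exact two-sided permutation over the 252 splits of the tumors, unadjusted for the 4 members, gave p = 0.0159 for Cavin3, 0.444 for Cavin1, 0.929 for Plvap and 0.992 for Ehd2. The difference of Cavin3 was 0.64 without tumor control IgG 4, the lowest value with 1 tumor left out. For Cavin1, Plvap and Ehd2 the difference was 0.18, 0.023 and 0.011, and with 1 tumor left out it ranged from 0.022 (without 6-3-A6 2) to 0.32, from -0.13 (without 6-3-A6 5) to 0.19 and from -0.34 (without 6-3-A6 2) to 0.19.

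Ehd2 lay far below the list. Its difference was -2.89 (SE 0.28, adjusted p = 1.03e-24 by limma, with the spread shared over genes). It was below the list in 10 of 10 tumors, between -3.85 and -1.47. The exact sign-flip permutation, which uses only the tumors' own values, gave p = 0.00195, the smallest that 1024 sign flips can give. Of all genes tested, 99.1% were called lower than the list, so that 1 of 4 counted members called lower stands against nearly all genes. Cavin1, Cavin3 and Plvap were among the few genes that were not.

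**Figure D3:**
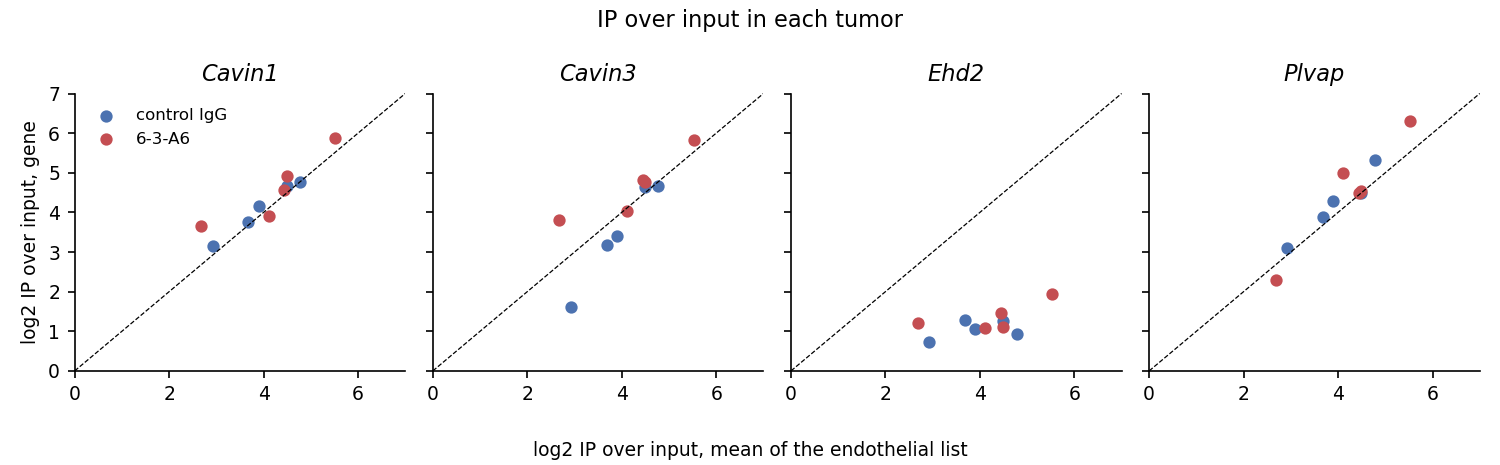
Each panel plots, for 1 gene, the log2 ratio of IP to input in each of the 10 tumors against the mean of the same ratio over 17 endothelial markers, in control IgG (blue) and 6-3-A6 (red), with a dashed line of equality. Cavin1 lies from 0.20 below to 0.98 above the line, Plvap from 0.39 below to 0.89 above and Cavin3 from 1.32 below to 1.12 above, while Ehd2 lies at least 1.47 below it and stays between 0.74 and 1.94 as the list goes from 2.68 to 5.52.

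The other genes tied to caveolae were a mixed group in the same comparison of IP with input. Of 16 genes listed as partners of caveolae, 12 were tested, 7 were called higher and 0 lower (19.8% and 21.4% of all genes), with a median log2 fold change of 0.70 against -0.05 over all genes. Nos3, the endothelial nitric oxide synthase that binds caveolin, had the largest value (5.09, SE 0.45, adjusted p = 8.61e-09), and Ehd3, a paralog of Ehd2, followed (4.33, SE 0.26, adjusted p = 6.19e-11). The smallest called values were those of Dnm2, the dynamin that cuts vesicles from the membrane (0.91, SE 0.16, adjusted p = 1.22e-04), and Pacsin2, a membrane-bending F-BAR protein (0.50, SE 0.11, adjusted p = 0.00113). Nos3 input levels were 0 to 0.700 CPM, near the limit of 0.106 to 0.273 CPM that 3 counts give, so its ratio rests on few input counts. Nos3 also passed the low-count filter through its IP libraries, so it was tested because of its level there.

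The EHD family was looked at after these values were seen. Its log2 fold changes of IP over input were 4.33 for Ehd3, 1.41 for Ehd4 (SE 0.18, adjusted p = 2.25e-06), 1.21 for Ehd2 and 0.27 for Ehd1 (SE 0.13, adjusted p = 0.0907), all by edgeR. Relative to the endothelial list Ehd3 lay at 0.13 (SE 0.22, adjusted p = 0.546 by limma), and Ehd4 and Ehd1 lay at -2.69 and -3.81.

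Genes of other routes of uptake were counted in the same comparison. Of 15 genes of clathrin coats, their adaptors and flotillins, all were tested, 4 were called higher in IP and 0 lower, against 19.8% and 21.4% of all genes, and the median log2 fold change was 0.22. The 4 were Cltc, the clathrin heavy chain (0.79, SE 0.21, adjusted p = 0.00533), Picalm, a clathrin adaptor (0.64, SE 0.13, adjusted p = 6.87e-04), Flot1, a flotillin (0.52, SE 0.13, adjusted p = 0.00254), and Ap2m1, a subunit of the AP-2 adaptor (0.40, SE 0.11, adjusted p = 0.00551). All 17 endothelial markers were called higher, with log2 fold changes from 3.16 to 5.41 and a median of 4.36. Among them Egfl7, at 0 to 1.14 CPM in input, passed the low-count filter through its IP libraries, as Nos3 did.

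**Figure D4:**
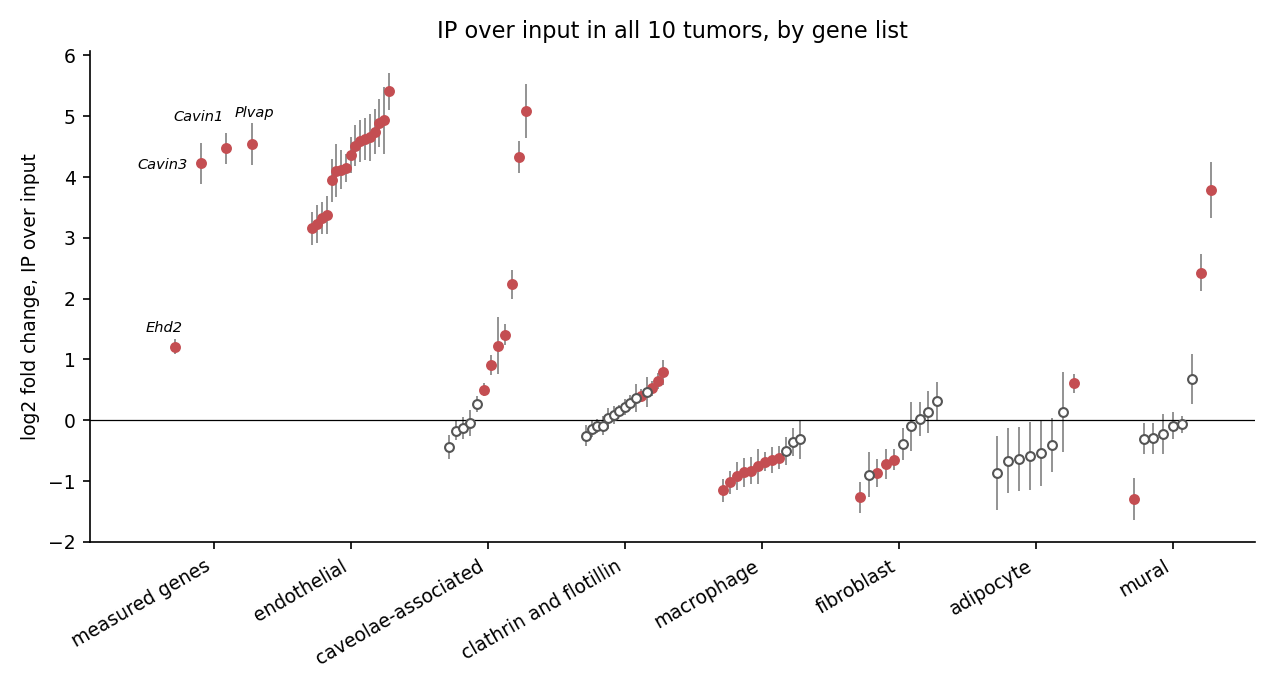
Log2 fold changes of IP over input across the 10 tumors are plotted per gene, grouped by list, with bars for the SE, filled red where the adjusted p is under 0.05 and open where it is not. Plvap, Cavin1 and Cavin3 lie within the range of the endothelial list, and Ehd2 lies at 1.21, below every endothelial marker and above every gene of the clathrin and flotillin list.

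Markers of other cells, some of which also carry caveolae, were counted in the same libraries. In IP against input, where 19.8% of all genes were called higher and 21.4% lower, 1 of 8 tested adipocyte genes was called higher and 0 lower (median -0.56), 4 of 10 fibroblast genes were lower and 0 higher (median -0.52), 2 of 5 tested skeletal muscle genes were lower, and of 9 mural genes 2 were higher (Kcnj8 and Abcc9) and 1 lower (median -0.09). Of 12 tested macrophage genes 9 were lower (median -0.72), of 6 epithelial genes 2 were lower, of 4 lymphatic endothelial genes 2 were higher and 1 lower, and of 4 globin genes 0 were called. The listed markers Itgam and Lipe have 0 counts in all libraries. The summed level of the adipocyte list was 44.3 to 208 CPM in input and 57.8 to 155 CPM in IP, and that of the fibroblast list was 1397 to 5259 CPM in input and 763 to 3909 CPM in IP. That of the macrophage list was 5790 to 14625 CPM in input and 3430 to 9056 CPM in IP. RNA of these lists thus remained in IP. The part of such cells in the input level of Ehd2, and in the IP levels of the members, was not tested.

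The question of the treatment was asked first in the 6 IP libraries that the study kept. In them Cavin3 was higher under 6-3-A6, and it was the 1 of 4 counted members called, where 2.57% of 13999 genes were called higher. Its kept levels were 44.4 to 87.1 CPM under control IgG (68.3 ± 21.8, SD, n = 3) and 150 to 284 CPM under 6-3-A6 (208 ± 68.7, SD, n = 3), a log2 fold change of 1.56 (SE 0.29, adjusted p = 0.0211 by edgeR). Cavin1 followed with 213 ± 68.7 and 500.0 ± 184 CPM (log2 fold change 1.19, SE 0.31, adjusted p = 0.0546 by edgeR).

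Plvap had 157 ± 79.8 and 296 ± 82.5 CPM (0.88, SE 0.37, adjusted p = 0.218 by edgeR), and Ehd2 had 440 ± 88.6 and 629 ± 92.0 CPM (0.47, SE 0.23, adjusted p = 0.290 by edgeR). The kept groups did not overlap for Cavin3, Cavin1 and Ehd2 and overlapped for Plvap, and 12.5% of all genes were higher with no overlap. Among the genes tied to caveolae, Nostrin, which traffics endothelial nitric oxide synthase (1.29, SE 0.24, adjusted p = 0.0204 by edgeR), and Nos3 (1.34, SE 0.32, adjusted p = 0.0390 by edgeR) were called higher, 0 of 12 were lower and the median was -0.09.

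These 6 libraries differed in endothelial marker levels as well as in treatment. The kept control IgG libraries were the 3 of 5 lowest in the endothelial list (mean log2 CPM 6.59 ± 0.80) and the kept 6-3-A6 libraries the 3 of 5 highest (7.75 ± 0.08, SD, n = 3 each). All 17 endothelial markers had positive log2 fold changes, 5 of them called, with a median of 0.86, while 6 of 12 macrophage, 3 of 10 fibroblast and 2 of 6 epithelial genes were called lower and 3 of 4 globin genes higher. Of all genes in these libraries, 2.04% were called lower. With the endothelial list as a covariate, the log2 fold change was 0.91 for Cavin3 (adjusted p = 0.797), 0.54 for Cavin1 (adjusted p = 0.900), 0.085 for Ehd2 (adjusted p = 0.977) and -0.25 for Plvap (adjusted p = 0.951), and 0 members and 1 gene in all were called by edgeR. In these 6 libraries treatment and endothelial marker level cannot be told apart.

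In the 4 IP libraries that the study left out, Cavin3, Cavin1 and Plvap were lower in both 6-3-A6 libraries than in both control IgG libraries, as were 19.1% of 13602 genes. The endothelial list was also lower there, with a mean log2 CPM of 5.64 and 7.33 under 6-3-A6 against 8.03 and 7.96 under control IgG. Cavin3 was 142 and 194 CPM in the left-out control IgG libraries against 56.7 and 89.2 CPM in those of 6-3-A6, and Cavin1 was 375 and 574 CPM against 198 and 287 CPM. Plvap was 277 and 363 CPM against 43.8 and 243 CPM, and Ehd2, whose groups overlapped, was 490 and 621 CPM against 458 and 533 CPM. Among the kept libraries, leaving out the 6-3-A6 library 3 or 4 left Cavin3 short of the threshold (log2 fold change 1.62 and 1.29, adjusted p = 0.0602 and 0.0621 by edgeR, with 9 and 161 genes called in all against 646). With each of the 6 left out in turn, its log2 fold change lay between 1.29 and 1.81, that of Cavin1 between 0.89 and 1.48, that of Ehd2 between 0.36 and 0.62 and that of Plvap between 0.57 (without control IgG 4) and 1.30 (without control IgG 2). Cavin1 was called without control IgG 2 (adjusted p = 0.0372 by edgeR).

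Over all 10 IP libraries 0 members were called (0% of 13602 genes by edgeR, and 0 genes by DESeq2, with 292 and 359 genes at an unadjusted p under 0.05). The log2 fold change of 6-3-A6 over control IgG was 0.49 for Cavin3 (SE 0.44), 0.30 for Cavin1 (SE 0.38), 0.23 for Ehd2 (SE 0.19) and 0.07 for Plvap (SE 0.49), each with adjusted p = 1.00 by edgeR, and the groups overlapped for all 4. With 1 library left out the values ranged from 0.17 to 0.81 for Cavin3, from 0.025 to 0.64 for Cavin1, from 0.14 to 0.33 for Ehd2 and from -0.14 to 0.34 for Plvap. The lowest values of Cavin3 and Cavin1 were those without 6-3-A6 4, and the lowest of Ehd2 and Plvap those without control IgG 4. The endothelial list had a mean log2 CPM of 7.15 ± 0.96 under control IgG and 7.25 ± 0.92 under 6-3-A6 (SD, n = 5 each). These p-values do not show that the levels were alike.

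In input 0 members were called as well (0% of 13683 genes by edgeR, and 0 genes by DESeq2, with 180 and 220 genes at an unadjusted p under 0.05). Cavin3 had the largest difference and was lower under 6-3-A6 (log2 fold change -0.76, SE 0.28, unadjusted p = 0.0189, adjusted p = 1.00 by edgeR), and it was -0.47 without the high library control IgG 4. Control IgG 4 was also the highest input library in the skeletal muscle list (mean log2 CPM 1.22). Plvap, Cavin1 and Ehd2 differed by -0.31 (SE 0.31), -0.13 (SE 0.19) and -0.05 (SE 0.16). With 1 library left out, Plvap ranged from -0.54 (without 6-3-A6 1) to -0.14 (without control IgG 3), Cavin1 from -0.22 (without 6-3-A6 5) to -0.027 (without control IgG 1) and Ehd2 from -0.15 to 0.012. Cavin3 therefore had a negative value in input and a positive value in IP, neither of them past the threshold.

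**Figure D5:**
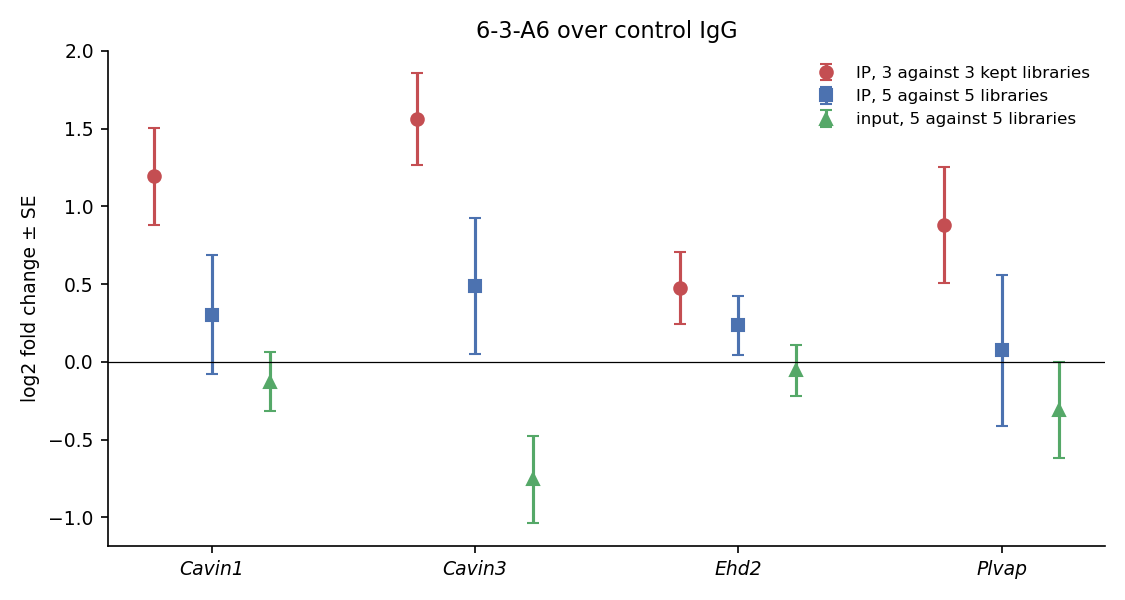
Points give the log2 fold change of 6-3-A6 over control IgG for each counted member, with bars for the SE, in the 6 kept IP libraries (red circles), all 10 IP libraries (blue squares) and the 10 input libraries (green triangles). Values in the kept libraries lie between 0.47 and 1.56, those over all IP libraries between 0.07 and 0.49, and those in input between -0.76 and -0.05.

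How the members moved with each other was described over the 10 IP libraries, in which endothelial marker levels also varied. Cavin1 and Cavin3 had the highest correlation of log2 CPM (r = 0.98), followed by Cavin3 and Plvap (0.80), Cavin3 and Ehd2 (0.79), Cavin1 and Ehd2 (0.77), Cavin1 and Plvap (0.76) and Ehd2 and Plvap (0.55). Of the 13602 genes tested in IP, the 5 most like Plvap were St8sia4, Adcy4, Cdh5, Slc43a3 and Sparcl1 (r = 0.98 each). The 5 most like Cavin1, used because Cav1 has no counts, were Crip2, Fam110d, Zfp503, Tnfaip8l1 and Rtl8a (r = 0.98 to 0.99). Cdh5, whose promoter drives the Cre in these mice, was itself 4.36 log2 units higher in IP than in input. These correlations are descriptions of 10 libraries and carry no test.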

How the data were processed

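Input and IP RNA of 10 tumors was sequenced as single reads. The authors aligned reads with STAR 2.7.4a and counted them with featureCounts 2.0.1 (1.5.2 is also named in the processing notes). They deposited raw counts per gene span for 20 libraries. The mm10 build is named, but the gene positions are those of GRCm39. Whether strand was used is not given in the sources used here. A second deposited table holds the authors' DESeq2 comparison, which was not used. Its signal columns, made by the authors as raw counts divided by size factors, served only to identify the 6 kept IP libraries.

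CPM were scaled by TMM factors, with a prior count of 2 for log2 CPM. Tests were edgeR 4.0.16 (filterByExpr, quasi-likelihood F test) and limma 3.58.1, in R 4.3.3, with Benjamini-Hochberg adjustment over all genes tested and a threshold of 0.05. The scripts were tested on simulated data. All 4 members with counts passed the low-count filter in every comparison. Alternatives were the DESeq2 1.42.0 Wald test and size factors, no low-count filter, a tumor or replicate block, the endothelial list as covariate, other length measures and leaving out libraries.

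IP and input of 1 number and treatment come from 1 homogenate, per the extraction protocol. Their deviations from group means correlated at 0.05 to 0.72 under control IgG and at -0.08 to 0.53 under 6-3-A6. Input libraries correlated best with the IP library of their own number in 3 of 5 control IgG and 4 of 5 tumors under 6-3-A6, the exceptions being control IgG 2 and 4 and 6-3-A6 4. The members and gene lists were chosen with earlier results of these data known. Members were named in every comparison. Of the caveolae and clathrin lists, the 2 largest and 2 smallest called changes of IP over input were named, with any gene called between treatments. The limit from 3 counts covers counting error only.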

Additional observations from a re-analysis of the deposited data

Results flagged for a closer look

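The input library control IgG 4 was set apart from the other 4 control IgG input libraries for Cavin3. It held 14.5 CPM against 5.25 to 7.86 CPM, and its gap to the next library was 0.718 of the range of the group, above Dixon's critical value for 5 samples. In the same tumor the IP level of Cavin3 was 44.4 CPM, the lowest of the 5 control IgG tumors, and its log2 ratio of IP to input was 1.60, against 3.18 to 4.67 in the other 4. The high input level was seen for Cavin3 alone of the 4 counted members: in this library Cavin1 had 15.9 CPM, Plvap 8.17 CPM and Ehd2 203 CPM, each below at least 1 other control IgG input library. Outside the members, the skeletal muscle list was also high in this library. Its mean log2 CPM was 1.22, against -2.31 to -0.46 in the other 4 control IgG input libraries. The low IP level was shared, and the same tumor was also the lowest of the 5 control IgG tumors in IP level for Cavin1 (144 CPM), Plvap (71.7 CPM), Ehd2 (340 CPM) and the endothelial list (mean log2 CPM 5.79). It was likewise the lowest of the 5 in log2 ratio of IP to input, with 3.16, 3.11, 0.74 and 2.92 in the same order. Relative to the endothelial list, Cavin3 lay at -1.32 in this tumor, its lowest of the 10, while Cavin1 lay at 0.24, Plvap at 0.19 and Ehd2 at -2.18. These ratios take the input and IP libraries of number 4 as 1 tumor. Over all genes, as deviations from group means, that input library correlated at 0.05 with its own IP library and best with that of control IgG 5. Chance flags about 1 in 20 groups, and 1 of 24 groups was flagged here. The cause was not tested, nor was the part of muscle RNA in the Cavin3 level of this library.

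The enrichment of Cavin3 relative to the endothelial list differed between the treatments by 0.86 on the log2 scale (6-3-A6 less control IgG, exact permutation p = 0.0159, unadjusted, 4 of 5 tumors below the list under control IgG and 4 of 5 above it under 6-3-A6). It did not pass the threshold over all genes (adjusted p = 1.00 by limma), and the split was noticed before it was tested.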

How the results depend on the processing

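The 4 members stayed called higher in IP over input, with the same direction, under every alternative run (in all tumors, in control IgG and in 6-3-A6), and 0 members were called in the interaction, over all 10 IP libraries and in input under every alternative run. The treatment comparison in the kept IP libraries was the one that moved. In place of 1 member called, the DESeq2 Wald test called 2 (1251 genes of all against 646), no filter on low counts 3 (1459 genes), the endothelial covariate 0, and leaving out 1 library 0 to 2. Plvap was -0.25 there with the covariate. Over all IP libraries Plvap was -0.031 with the replicate block, -0.13 with the covariate, and -0.14 to 0.34 with 1 library left out. Leaving out 1 tumor or library moved Cavin3 relative to the endothelial list between -0.15 and 0.12 and Ehd2 in input between -0.15 and 0.012. None of the reversed values passed the threshold. The CPM per kb in control IgG IP changed from 22.4, 23.6 and 15.9 on the span to 88.5, 95.0 and 112 per kb of spliced transcript for Cavin1, Ehd2 and Plvap, and to 118, 95.0 and 165 per kb of exon outside other genes, with Cavin3 at 84.0 on the last. That last length and the fits without the tumors lowest in endothelial markers were added after seeing the data. Numbers of control IgG and 6-3-A6 tumors do not pair them: same-numbered libraries correlated at -0.34 to 0.25 in input and -0.20 to 0.37 in IP, and 0 of 5 and 1 of 5 correlated best with their own number. The block could not be fitted in the kept libraries, whose groups share only number 4. It changed no other member call.

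Input values of Cavin3 rest on 44 to 252 counts per library and those of Plvap on 41 to 252, which limits their precision more than that of Ehd2 (1727 to 6559 counts).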
